A study of Homo sapiens with 2 samples.

Results

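The interferon-stimulated genes described here were 43 genes chosen by symbol from the gene table, which lists 27685 genes. All 43 symbols were found, each with an estimated count of reads and a level in FPKM (fragments scaled by transcript length and library size) in both libraries. One RNA-seq library came from H2087 cells and the other from H596 cells, 2 established human lung tumor cell lines that the labels both call lung adenocarcinoma. The labels give both as untreated and grown in RPMI medium with fetal bovine serum and antibiotics, and name no genetic change and no interferon treatment. The question that the deposited data allow is how far these genes were expressed in each line without an added stimulus, and where the lines differed. Each cell line is represented by 1 library, so the values lack replicates, and the lines were compared without tests or p-values. The library, its culture and the cell line cannot be told apart.

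Interferons are secreted proteins by which infected cells warn their neighbours. Type I interferon binds the receptor IFNAR, whose kinases JAK1 and TYK2 phosphorylate STAT proteins, STAT2 among them, which join IRF9 in the complex ISGF3. ISGF3 enters the nucleus and binds interferon-stimulated response elements, in which the bases GAAA recur at a short spacing. Interferon gamma acts through STAT pairs that bind a different site, the gamma-activated sequence. The genes switched on in this way encode RNA sensors, nucleases, membrane proteins that block viral entry and release, and the ubiquitin-like protein ISG15. Many of them are also transcribed at a low level without interferon, in epithelial cells among others, and some tumors keep a number of them on.

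The libraries held 46961500 (H2087) and 55387847 (H596) estimated counts in all, of which the 43 genes held 0.270% and 0.423%. Differences are given as H596 minus H2087 on the log2(FPKM + 1) scale, on which the differences of low genes are understated. A gene counted as higher or lower when it differed at least 2-fold on that scale and its mean FPKM was at least 1. Folds named for single genes are ratios of FPKM values, and the range in brackets is an exact 95% interval of the count ratio carried over to FPKM. Brackets after a level hold the 95% Wilson interval of the gene's share of the counts. Both kinds of interval cover counting error only. Where a gene is given with 2 levels, the first is H2087 and the second H596, in FPKM. Markers bear on what the lines are: the lung adenocarcinoma marker NKX2-1 measured 110.0 FPKM in H2087 and 0.508 in H596, and NAPSA 21.9 and 0.0645. The surfactant genes SFTPB (0.123 and 0) and SFTPC (0 and 0.0301) were near 0 in both, so of the 4 markers of this list 2 reached 1 FPKM in H2087 and none did in H596. The 5 squamous markers examined were all higher in H596, with TP63 at 0.183 and 55.2. The leukocyte markers PTPRC, CD3E and MS4A1 and all 3 markers of plasmacytoid dendritic cells had 0 counts in both libraries. Of the 7 leukocyte markers CD68 alone reached an FPKM of 1, with 128 in H2087 and 25.6 in H596, and the summed FPKM of the list was 129 and 25.8. In bulk RNA, fewer expressing cells and less RNA per cell cannot be told apart.

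The bases before the first transcribed base are shown for 6 genes, chosen because they hold a match to the interferon-response motif there. Binding to these matches was not measured. The motif searched was GAAANNGAAA on either strand, 2 copies of GAAA with 2 bases of any kind between them. Of the members with the highest levels or the largest differences, 8 hold such a match wholly before the start of their highest transcript. The 6 with the largest differences are shown, in that order, and IFI6 and ISG15 are not. Capitals mark the matches, which on the other strand show GAAA as TTTC, and each stretch is written along the gene's own strand with up to 30 bases on either side, or 30 bases in all at most where a protein-coding exon or another listed transcript lies close. They come from the GRCh37 (hg19) genome, the build of the deposited tables.
IFI27, + strand, chr14:94576971-94576999, positions -108 to -80 from the start: cagTTTCGGTTTCctgGAAAATGAAAcct
SAMD9, - strand, chr7:92747389-92747458, positions -122 to -53 from the start: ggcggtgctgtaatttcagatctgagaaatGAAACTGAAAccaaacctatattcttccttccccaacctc
RSAD2, + strand, chr2:7017753-7017782, positions -43 to -14 from the start: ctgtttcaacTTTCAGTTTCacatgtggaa
BST2, - strand, chr19:17516547-17516576, positions -119 to -90 from the start: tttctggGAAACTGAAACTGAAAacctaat
HERC5, + strand, chr4:89378115-89378235, positions -153 to -33 from the start: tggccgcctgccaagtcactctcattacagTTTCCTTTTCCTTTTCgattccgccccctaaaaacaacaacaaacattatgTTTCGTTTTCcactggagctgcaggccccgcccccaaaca
PARP9, - strand, chr3:122283169-122283198, positions -51 to -22 from the start: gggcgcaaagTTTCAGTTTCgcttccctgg

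SAMD9 and RSAD2 were higher in H596 and IFI27 and BST2 lower, while HERC5 and PARP9 differed by less than 2-fold, so these like-looking sequences stood before genes of every direction. BST2 and HERC5 each hold overlapping copies in which 1 GAAA serves 2 matches, and IFI27 holds 1 copy on each strand. By GENCODE and the deposited transcripts, the stretches of IFI27, SAMD9 and HERC5 lie in no exon. That of BST2 overlaps exons of the noncoding gene BISPR and of MVB12A on the other strand, that of RSAD2 an exon of a longer RSAD2 transcript, and that of PARP9 an exon of DTX3L and the span of longer PARP9 transcripts.

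Most of the genes were expressed in both lines without treatment. An FPKM of at least 1 was reached by 38 of the 43 in H2087 and by 42 in H596, and the same 38 passed in both, beside 45.3% and 45.5% of all genes. The median FPKM of the 43 was 8.92 in H2087 and 18.9 in H596, and that of the 13048 genes that passed the filter on mean FPKM was 9.23 and 10.5. No member had 0 counts in either library. The highest members were membrane proteins and a secreted protein: IFITM3, IFITM1, LGALS3BP, BST2 and IFITM2 reached 100 FPKM in H2087, and IFITM3, LGALS3BP, IFITM1 and IFITM2 in H596, beside 2.54% and 2.30% of all genes.

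**Figure D1:**
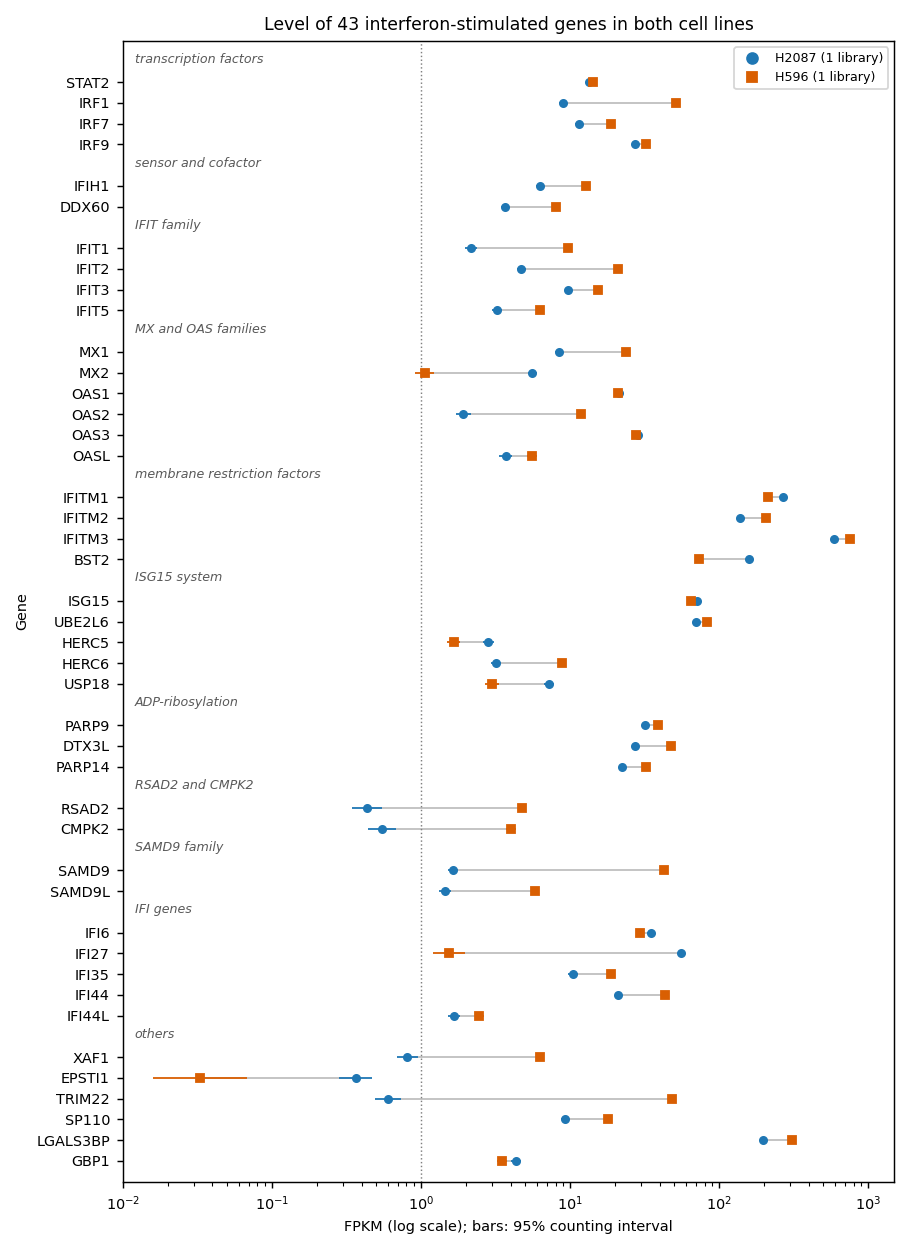
FPKM of the 43 interferon-stimulated genes in the H2087 and the H596 library (log axis), grouped by role, with 1 point per library and 95% counting intervals. IFITM3 is the highest in both libraries at 587 and 758, and TRIM22 shows the widest gap, from 0.602 to 48.4.

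The lines differed more often in the direction of H596. Of the 42 genes that passed the filter on mean FPKM, 13 (31.0%) were at least 2-fold higher in H596, beside 18.2% of all 13048 genes tested, and 4 (9.52%) were at least 2-fold lower, beside 14.2%. In either direction 17 of 42 (40.5%) differed, beside 32.4%. Among the 42 were TRIM22, RSAD2, CMPK2 and XAF1, which were under an FPKM of 1 in H2087 and passed only through their level in H596. EPSTI1 alone was left out by the filter. Without any filter the counts over all 43 were again 13, beside 9.19% of all 27685 genes, and 4, beside 7.45%. Only EPSTI1 could have changed these counts, and its difference of -0.40 lay inside the limit. With FPKM rescaled to TPM (transcript abundance scaled to the same total in each library) the split was 18 higher, beside 24.6% of all genes, and 2 lower, beside 12.9%. On the log2(FPKM + 1) scale, 6 genes were at least 4-fold higher in H596, beside 5.36% of all genes, and 1 lower, beside 4.77%. That scale draws in low genes. As plain ratios of FPKM, CMPK2 (7.28), IFIT1 (4.51), IFIT2 (4.46) and SAMD9L (4.01) were also over 4-fold higher. MX2 was also over 4-fold lower by that ratio (5.28).

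Over all 43 genes the median difference was 0.62, against 0.12 over all genes tested, and 31 of the 43 lay above 0, beside 55.2% of all genes tested. After subtraction of that general shift the median was 0.51, with 12 members higher, beside 15.6% of all genes, and 4 lower, beside 16.2%. The differences ran from -4.48 for IFI27 to 4.95 for TRIM22, both of them beyond the 5th and 95th percentiles of all genes tested, -1.95 and 2.06.

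**Figure D2:**
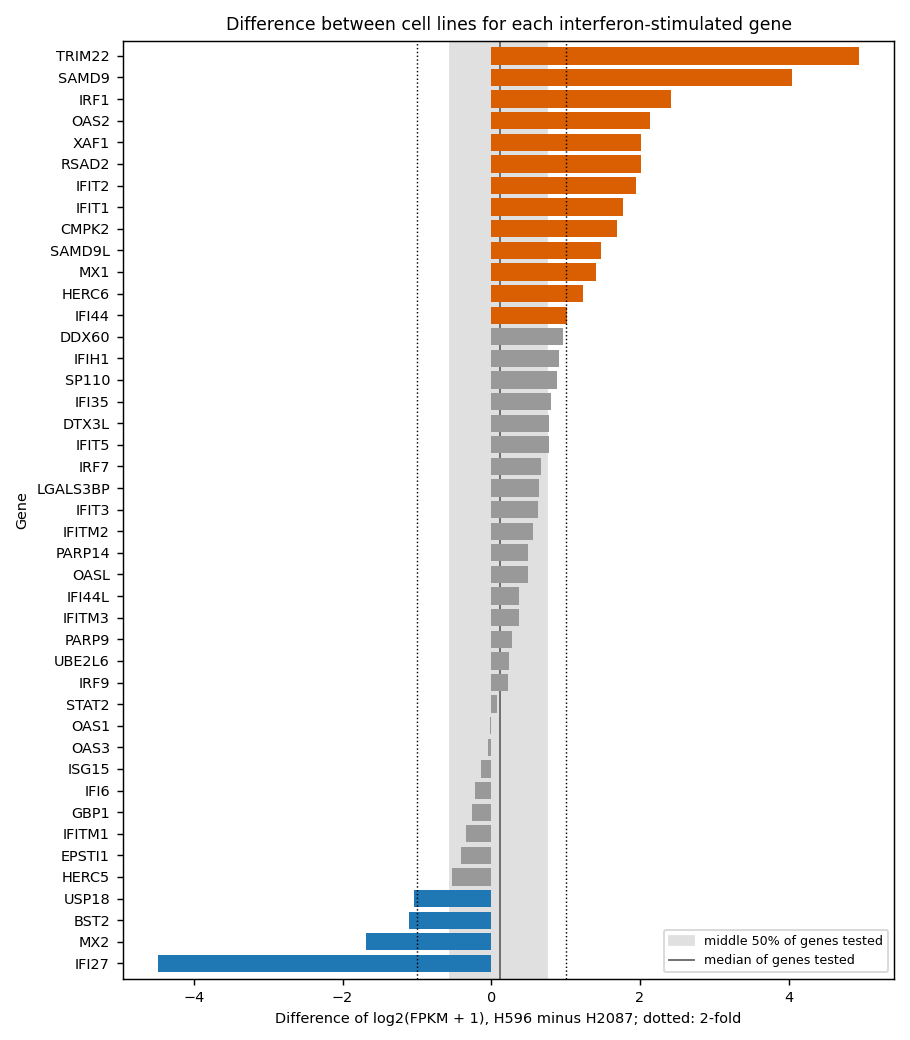
Difference of log2(FPKM + 1), H596 minus H2087, of each of the 43 genes (1 library per line), with dotted lines at the 2-fold limits and a grey band over the middle 50% of all genes tested, from -0.55 to 0.75. Of the genes, 31 lie above 0, while IFI27 at -4.48 and MX2 at -1.68 lie farthest below it.

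Of the 4 transcription factors, IRF1 alone differed at least 2-fold. IRF1, which activates interferon and antigen presentation genes, measured 8.92 FPKM (8.48 to 9.38) in H2087 and 51.8 (50.8 to 52.8) in H596, 5.81-fold higher in H596 (5.5 to 6.13). IRF7, which drives interferon genes once phosphorylated, had an FPKM of 11.5 and 18.9. IRF9, the DNA-binding part of ISGF3, had 27.3 and 32.1. STAT2, its partner, was at 13.4 and 14.2, a difference of 0.08 that became -0.04 after centring on the median and -0.05 with counts scaled by edgeR's TMM method. So the components of ISGF3 coded by members were at like levels in both lines, with IRF9 above STAT2 in each.

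The RNA helicase IFIH1 (MDA5), a sensor of long double-stranded RNA, measured 6.30 FPKM in H2087 and 12.7 in H596. DDX60, a helicase linked to RNA sensing, had 3.65 and 8.03. Their differences of 0.91 and 0.96 were just inside the 2-fold limit, and they passed it in TPM and with a pseudocount of 0.1.

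All 4 IFIT genes had differences above 0, and IFIT1 and IFIT2 were at least 2-fold higher in H596. The IFIT proteins bind viral RNA and hinder its translation. IFIT1 measured 2.16 FPKM in H2087 and 9.76 in H596, and IFIT2 4.72 and 21.0, 4.51-fold (4.08 to 5.00) and 4.46-fold (4.14 to 4.82) higher. IFIT3, which binds and stabilises IFIT1, had an FPKM of 9.73 and 15.5, and IFIT5 had 3.26 and 6.28. IFIT3 therefore stood at 4.50 times the level of IFIT1 in H2087 and at 1.59 times in H596. IFIT2 was the highest of the 4 in H596 and IFIT3 in H2087.

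The MX and OAS families were split. MX1, a dynamin-like GTPase that blocks influenza virus among others, measured 8.40 FPKM in H2087 and 23.9 in H596, 2.85-fold higher (2.67 to 3.05). Its neighbour MX2, which acts against HIV-1, went the other way, with 5.60 (5.22 to 6.0) and 1.06 (0.916 to 1.23), 5.28-fold lower in H596 (4.49 to 6.25). The ratio of MX1 to MX2 was 1.5 in H2087 and 22.6 in H596.

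The oligoadenylate synthetases make a small messenger in response to double-stranded RNA. OAS2 measured 1.92 FPKM (1.71 to 2.16) in H2087 and 11.8 (11.3 to 12.3) in H596, 6.13-fold higher (5.41 to 6.98). OAS1 was at 21.4 and 21.1, and OAS3, the largest of them, at 28.6 and 27.6, with differences of -0.02 and -0.05 that turned to 0.16 and 0.13 in TPM. OASL, which lacks the synthetase activity, had an FPKM of 3.70 and 5.60. OAS3 was the highest of the family in both lines, at 14.9 times OAS2 in H2087 and 2.35 times in H596.

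The 4 membrane proteins made up most of the members' expression, with a summed FPKM of 1155 in H2087 and 1249 in H596 out of 1891 and 2347 for all 43. IFITM3, which stops enveloped viruses in endosomes, measured 587 FPKM in H2087 and 758 in H596 and ranked 119 and 50 among all genes. IFITM2 had 139 and 205, and IFITM1, which sits mainly at the cell surface, 269 and 212. None of the 3 reached 2-fold. IFITM2 and IFITM3 are near-identical copies, and how their reads were divided is not stated, so their separate levels are uncertain. BST2 (tetherin), which holds budding virions on the cell, had an FPKM of 159 (156 to 163) and 73.7 (71.5 to 75.9), 2.16-fold lower in H596 (2.08 to 2.25). On the log2(FPKM + 1) scale its difference of -1.10 became -0.93 in TPM, inside the limit.

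ISG15 and the enzymes that attach and remove it did not move together. ISG15 itself measured 71.2 FPKM (68.3 to 74.2) in H2087 and 64.6 (62.1 to 67.2) in H596, a difference of -0.14 that turned to 0.04 in TPM. UBE2L6, the conjugating enzyme, had 69.7 and 82.5. HERC5, the main ligase, was at 2.84 and 1.66, and its relative HERC6 at 3.20 and 8.84, 2.76-fold higher in H596 (2.52 to 3.04). USP18, the protease that removes ISG15 and also damps signalling at IFNAR2, had an FPKM of 7.21 (6.70 to 7.77) and 2.99 (2.69 to 3.32), 2.41-fold lower (2.12 to 2.75). The USP18 difference of -1.04 became -0.99 in TPM. ISG15 stood at 9.87 times the level of USP18 in H2087 and at 21.6 times in H596, and HERC6 at 1.13 and 5.34 times HERC5.

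The ADP-ribosylation genes were expressed at a middle level and none reached 2-fold. PARP9 measured 32.1 FPKM in H2087 and 39.2 in H596, its ubiquitin ligase partner DTX3L 27.3 and 47.4, and PARP14, a mono-ADP-ribosyltransferase, 22.5 and 32.1. PARP9 and DTX3L lie head to head on opposite strands and overlap by 339 bases, the only overlap of a member with another listed gene. The library kit keeps strand, but whether the estimation used it is not stated, so part of their reads may be shared.

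Among the genes lowest in H2087 were 2 neighbours on chromosome 2. RSAD2 (viperin), a radical SAM enzyme that makes a chain-terminating nucleotide, measured 0.436 FPKM (0.347 to 0.547) in H2087 and 4.79 (4.50 to 5.11) in H596, from 74 and 956 counts. That made it 11.0-fold higher in H596 (8.68 to 14.1). CMPK2, a mitochondrial nucleotide kinase beside it, had an FPKM of 0.549 and 4.0, 7.28-fold higher (5.75 to 9.33). Both were at a low level in H596 as well, under the median of 10.5 for all genes tested.

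SAMD9 and SAMD9L, paired genes on chromosome 7 whose products restrict poxviruses and growth, were both higher in H596. SAMD9 measured 1.64 FPKM (1.51 to 1.79) in H2087 and 42.6 (42.0 to 43.3) in H596, 26.0-fold higher (23.8 to 28.3), from 540 and 16578 counts. SAMD9L had 1.45 and 5.82. The pair was near level in H2087, with SAMD9 at 1.13 times SAMD9L, and apart in H596, at 7.33 times.

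Of the 5 genes with IFI names, IFI27 was the member with the largest difference below 0. IFI27, a small mitochondrial membrane protein, measured 55.9 FPKM (53.3 to 58.6) in H2087 and 1.54 (1.20 to 1.99) in H596, from 1685 and 60 counts, 36.2-fold lower in H596 (28.0 to 47.6). Its relative IFI6 had 34.8 and 29.7. IFI44 was at 21.0 and 43.5, a difference of 1.02 that became 0.90 after centring and 0.81 with TMM, inside the limit. IFI44L beside it had an FPKM of 1.67 and 2.46, and IFI35, which pairs with NMI, 10.5 and 18.9.

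TRIM22, a RING-type ubiquitin ligase that restricts several viruses, showed the largest difference of all members. It measured 0.602 FPKM (0.490 to 0.739) in H2087 and 48.4 (47.4 to 49.5) in H596, from 90 and 8491 counts, 80.5-fold higher in H596 (65.4 to 100.2). XAF1, a binding partner of the apoptosis inhibitor XIAP, had an FPKM of 0.812 (0.689 to 0.957) and 6.33 (6.0 to 6.69), 7.80-fold higher (6.55 to 9.34). LGALS3BP, a secreted glycoprotein, was at 197 and 308. SP110, a nuclear body protein, had 9.30 and 18.0, and the GTPase GBP1 had 4.36 and 3.49. EPSTI1 was the lowest member in both lines, with an FPKM of 0.364 and 0.0329 from 56 and 7 counts, so its ratio is known only within 5.04 to 28.8-fold lower in H596.

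With gaps of up to 250 kb, 23 of the 43 genes fell into 9 groups of neighbours, and in 5 of these all members lay above 0. For comparison, 31 of the 43 members and 55.2% of all genes tested lay above 0. Like groups of other genes were not formed, so the count has no share over all genes beside it. The 4 IFIT genes (chr10:91061706-91180759) ranged from 0.62 to 1.95, CMPK2 and RSAD2 (chr2:6980684-7038363) from 1.69 to 2.01, SAMD9 and SAMD9L (chr7:92728826-92777712) from 1.48 to 4.05, IFI44L and IFI44 (chr1:79086067-79129763) from 0.37 to 1.02, and PARP9, DTX3L and PARP14 (chr3:122246760-122449687) from 0.28 to 0.78. In the other 4 groups the members lay on both sides of 0: MX2 and MX1 (chr21:42733950-42831141), HERC6 and HERC5 (chr4:89299891-89427319), the 3 IFITM genes (chr11:308107-320914) and OAS1, OAS3 and OAS2 (chr12:113344582-113449528), the last of which lay wholly above 0 in TPM. The widest range inside a group was that of the MX genes, -1.68 to 1.41.

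The 20 nearest tested genes around a member, members left out, show what else differed there. Around TRIM22 (chr11:5710817-5732093) their median difference was 0.23 and 2 of 20 were at least 2-fold higher in H596. Around SAMD9 (chr7:92728826-92747336) the median was -0.16, with 1 of 20 higher, and around IFI27 it was 0.58, with 2 of 20 lower. These 3 were picked as the members with the largest differences, which most genes tested lacked as well. Smaller differences among their neighbours therefore do not set these places apart. The OAS genes lay in a stretch that was low in H596, with a median of -1.23 and 13 of 20 neighbours at least 2-fold lower, while OAS2 was 2.13 above 0. Around STAT2 the median was -0.77 and around the MX genes 0.57. The part of these surroundings in the members' differences was not tested.

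The interferon-response motif was common in the members' promoter windows in both directions of difference. Windows ran from 250 bases before to 50 bases after the start of the highest listed transcript of each gene. Matches to GAAANNGAAA stood in 24 of the 43 windows (55.8%), in 28 of 104 windows of the other interferon pathway genes described below (26.9%), in 332 of 12125 windows of the genes tested (2.74%) and in 804 of 23520 windows of all genes (3.42%). The letters TTCNNNGAA of the gamma-activated sequence, which read the same on both strands, stood in 11 of 43 windows (25.6%), in 20 of the 104 (19.2%), in 747 of 12125 (6.16%) and in 1724 of 23520 (7.33%). Of the members, 6 held both. The GAAANNGAAA matches of PARP9 and DTX3L are the same bases read along opposite strands, so a single site counts for both genes. The 24 genes with the first motif had differences from -4.48 to 4.05 with a median of 0.44, and 5 were at least 2-fold higher in H596. The 19 without it ran from -1.68 to 4.95 with a median of 0.80, and 8 were higher. Of all genes tested, 18.2% were at least 2-fold higher and 14.2% lower. The members at least 2-fold lower were IFI27 and BST2 with the motif and MX2 and USP18 without it. Whether the motif goes with the difference was not tested. TRIM22, OAS2, XAF1, MX1, MX2, USP18 and CMPK2 had no match to it in the window, which says only that these letters were not in these 300 bases.

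**Figure D3:**
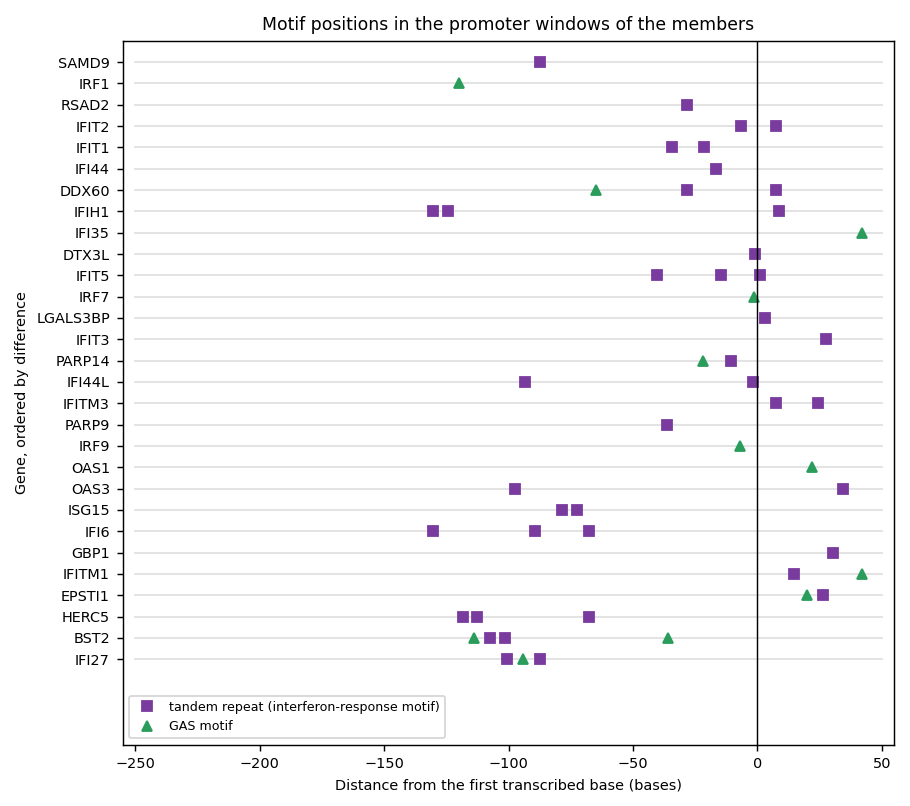
Positions of the GAAANNGAAA (squares) and TTCNNNGAA (triangles) matches relative to the first transcribed base of the highest transcript (bases), for the members with a match, ordered by their difference from highest in H596 (top) to lowest (bottom). Squares appear along the whole order, from SAMD9 at 4.05 to IFI27 at -4.48.

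For several members the lines divided the gene's expression differently among its listed transcripts, a pattern picked after the values were seen. Of the 43 genes, 20 had 1 listed transcript and 23 had several. The same transcript was highest in both libraries for 38, which includes the 20 where no other was possible. Of the 23 with several, 5 had another highest transcript in each library, and the share over all genes was not computed. In 19 genes with several transcripts and at least 100 counts per library, 6 had a transcript whose share moved by over 25 percentage points, beside 18.9% of all 7484 genes that met the same conditions. The OAS1 transcript NM_002534 held 82.3% of the gene's FPKM in H2087 and 21.4% in H596, although the gene's total was nearly the same. The SP110 transcript NM_004510 held 84.4% and 45.6%, and the SAMD9L transcript NM_152703 22.1% and 59.3%. For IFIT3, NM_001031683 held 37.6% and 9.96%. In XAF1 and HERC6 the transcripts NM_017523 and NM_017912 went from 100% to 73.3% and from 66.4% to 92.8%. Shares of overlapping transcripts are estimates of the authors' software and have no interval here.

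**Figure D4:**
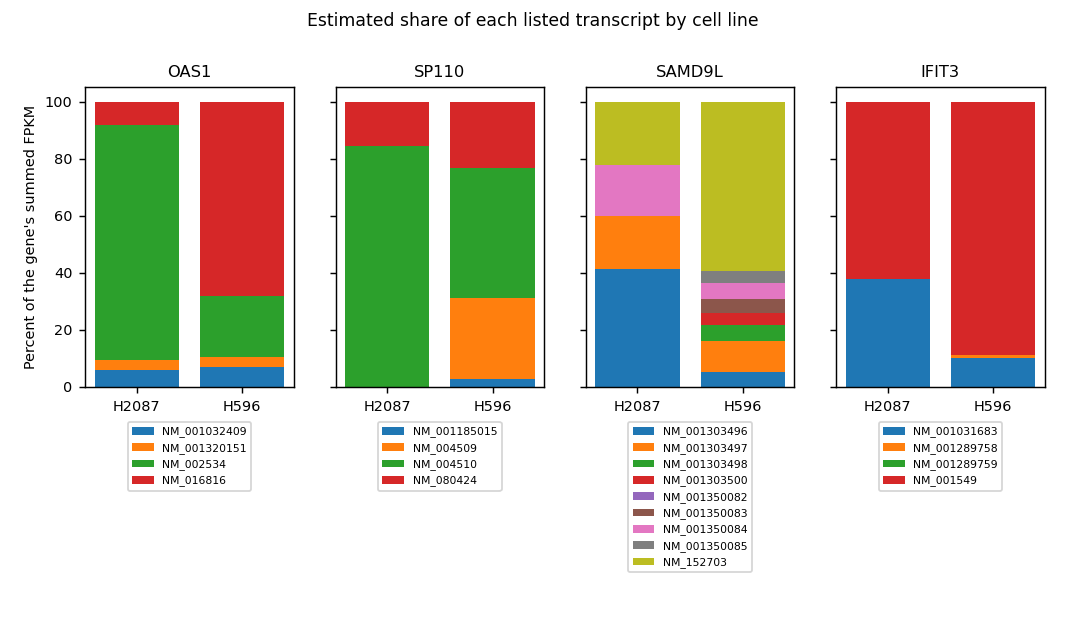
Percent of the summed FPKM held by each listed transcript of OAS1, SP110, SAMD9L and IFIT3 in the H2087 and the H596 library (stacked to 100). The OAS1 transcript that held 82.3% in H2087 held 21.4% in H596.

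The pathway around the members was described by 6 further lists with 109 genes, of which 80 passed the filter, 38 were at least 2-fold higher in H596 and 7 lower. Among the 38, IFNE, JAK2, TLR3, GBP4 and C1S were under an FPKM of 1 in H2087 and passed only through H596. Among the 7, IFNLR1 and GMPR were under 1 in H596 and passed only through H2087. For such genes the filter favors a call, and they stand in the counts of their own lists as well. For these lists too the shares of all genes tested are 18.2% higher and 14.2% lower. The interferon genes themselves were at or near 0: of 21, 20 had 0 counts in H2087 and 17 in H596, which allows up to 3 counts each. IFNE, an epithelial type I interferon, was the exception, with 0.283 FPKM in H2087 and 1.88 in H596 from 20 and 157 counts. IFNB1 had 0 and 2 counts, IFNL1 0 and 2 and IFNL2 0 and 6.

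All 12 receptor and signalling genes passed the filter, 4 of them higher in H596 and 1 lower. The kinases TYK2 and JAK2 had an FPKM of 7.75 and 0.636 in H2087 and 31.8 and 8.03 in H596. The receptor chains IFNGR1 and IL10RB had 14 and 15.1 in H2087 and 67.2 and 35.3 in H596. IFNLR1, the chain specific to lambda interferons, had 2.89 in H2087 and 0.00772 in H596, the latter from 2 counts. The chains of the type I receptor were at 9.51 and 16.7 for IFNAR1 and at 12.2 and 12.2 for IFNAR2, and JAK1 at 19.2 and 32.3.

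Of the 12 sensors and adaptors, 11 were tested, 4 were higher in H596 and 1 lower. TLR3, which senses double-stranded RNA in endosomes, measured 0.499 FPKM in H2087 and 17.5 in H596. DDX58 (RIG-I) had 1.98 and 7.82, DHX58 (LGP2) 1.23 and 4.38 and MAVS, the adaptor of the RNA helicases, 9.68 and 22.7. On the DNA-sensing side TMEM173 (STING) was at 112 and 15.4, 7.28-fold lower in H596 (6.92 to 7.65), and MB21D1 (cGAS), the enzyme before it, at 8.11 and 5.01. Of the 7 inhibitors, 6 were tested and 4 differed: the phosphatases PTPN1 (10.1 and 39.3) and PTPN2 (21.0 and 52.7) and the STAT inhibitor PIAS1 (5.98 and 21.1) were higher in H596 and PTPN11 (50.1 and 20.9) lower. SOCS1, a feedback inhibitor of the kinases, had an FPKM of 0.408 and 0.781.

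Of the 39 other interferon-induced genes 37 were tested, of which 19 were higher in H596 and 3 lower, beside 18.2% and 14.2% of all genes. The median difference of all 39 was 0.98. The largest were TNFSF10 (TRAIL), a death ligand, with 1.58 FPKM in H2087 and 191 in H596, APOL1, a channel-forming apolipoprotein, with 6.47 and 261, RTP4 with 1.51 and 23.1, APOL2 with 9.28 and 91.0 and the complement protease C1R with 1.44 and 15.8. GMPR, which converts guanine nucleotides, had 320 counts in H2087 and 0 in H596, at least 126-fold lower when 3 counts are taken as the limit. HSH2D and the exonuclease ISG20 were also lower, at 5.18 and 1.14 and at 7.63 and 2.15.

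**Figure D5:**
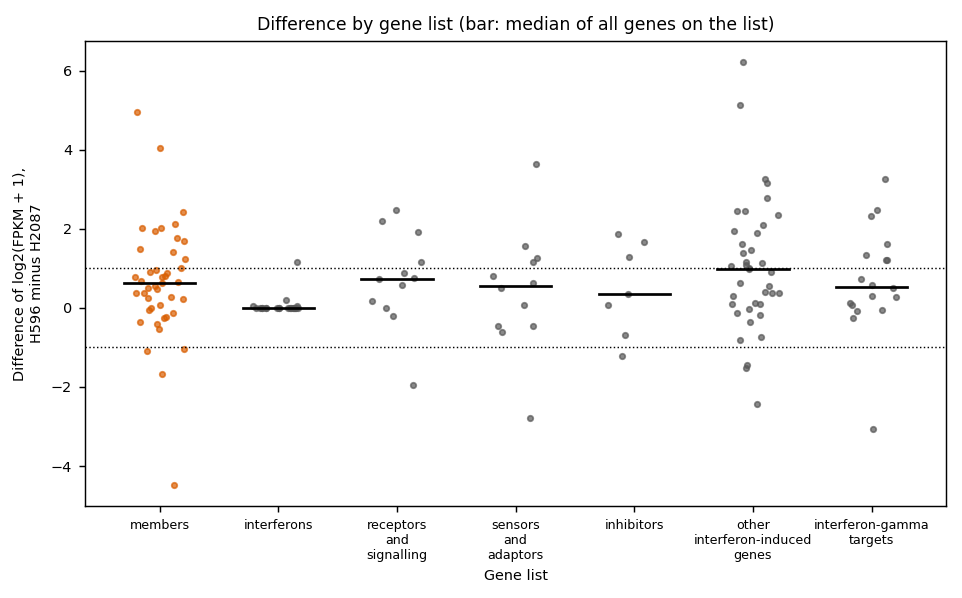
Difference of log2(FPKM + 1), H596 minus H2087, of the 43 members and of each gene of the other 6 lists (1 point per gene, bar at the median of all genes on the list, dotted lines at 2-fold). The members' median is 0.62 and that of the other interferon-induced genes 0.98, while the interferon genes lie between 0 and 0.19 apart from IFNE at 1.16.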

How the data were processed

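RNA-seq of 1 library each of untreated H2087 and H596 cells was used. Per the labels, the authors used bcl2fastq 1.8.4, Trimmomatic, HISAT2 2.0.5 and StringTie 1.3.3b with hg19. The deposited estimated counts are whole numbers, and how they were made is not stated; if both mates were counted, intervals are too narrow. The deposited FPKM values are relative to transcript length and library size, and gene rows equalled the sum of transcripts for all 43 members within 0.01. No column lacked a sample.

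The members and gene lists were chosen with earlier results of these data known. Differences used a pseudocount of 1 and a minimum mean FPKM of 1. Members described individually were the 10 with the highest FPKM per library and the 6 with the largest differences in each direction; MX1, OAS1, OAS3 and the other members follow by role. From the other lists, the largest 2-fold differences and central genes were taken. Alternatives were a pseudocount of 0.1, TPM, centring, TMM scaling (edgeR 4.0.16, R 4.3.3), transcript sums, other filters and other folds. Totals of 46961500 and 55387847 counts set the precision, given as Wilson and exact 95% intervals (scipy 1.17.1). Scripts were tested on simulated data. Promoter strands came from GENCODE release 44 on GRCh37. Python 3.11.15, numpy 2.4.6, pandas 2.3.3 and matplotlib 3.10.9 were used.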

Additional observations from a re-analysis of the deposited data

How the results depend on the processing

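No paired analysis was possible because there was a single library of H2087 and of H596, and neither could be left out. Of 17 members at least 2-fold apart (13 higher and 4 lower in H596), TPM left 2 lower, and it raised the median difference of the members from 0.62 to 0.83, while the median of all genes tested went from 0.12 to 0.30. A mean FPKM of at least 10 left 8 members apart, 6 higher and 2 lower, with 26 members tested, beside 15.6% and 14% of all genes. On the log2(FPKM + 1) scale a 4-fold limit gave 7 (6 higher and 1 lower), beside 5.36% and 4.77% of all genes. A 1.5-fold limit on that scale gave 26, of which 22 were higher and 4 lower, beside 30.6% and 24.0%. Of 51 such values recomputed, 41 stayed within the limits set for a change and 10 did not. Of 105 differences of single members, 50 stayed inside their counting interval. The 105 cover only the members described individually for their level or the size of their difference. Transcript sums equalled the gene rows of the members, so that setting could not move a value. Its results are counted among those that stayed, in the 51 and in the 105. The median without a filter was fixed as well, because the main median already covers all members. The numbers of members called without a filter could move only through EPSTI1. Both counts of values that stayed therefore overstate how stable the results were. Over all members, the sign changed for STAT2 with centring and TMM and for OAS1, OAS3 and ISG15 in TPM. With the RefSeq promoter windows of GRCh38.p14, an alternative chosen after seeing the data, 22 of 35 members (62.9%) held the tandem motif, beside 3.65% of all 27305 windows. EPSTI1, with 7 counts in H596, had a difference of -0.40 that was -1.81 with a pseudocount of 0.1 and -1.0 with TMM.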

Other observations

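Of 18 genes best known as targets of interferon gamma, 8 differed at least 2-fold between the lines. Of the 13 tested, 7 were higher in H596 and 1 was lower, beside 18.2% and 14.2% of all genes, and 5 were within 2-fold (ICAM1, PSMB8, PSMB10, WARS and IFI30). The GTPases GBP3, GBP4 and GBP2 had an FPKM of 5.40, 0.162 and 9.20 in H2087 and 60.5, 5.41 and 22.7 in H596, whereas the member GBP1 had 4.36 and 3.49. IDO1, which degrades tryptophan, had 1.04 and 9.23, the immunoproteasome subunit PSMB9 57.6 and 178, and SECTM1, a membrane protein that can be secreted, 8.36 and 22.6. NLRC5, an activator of MHC class I genes, was the gene that was lower in H596, with 18.6 and 1.32, 14-fold lower (12.8 to 15.4, counting error only). The peptide transporter TAP1 was higher, with an FPKM of 22.8 and 54.2. The chemokines CXCL9, CXCL10 and CXCL11 had at most 17 counts in either library.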
